A study of Mus musculus with 18 samples.

Results

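Sterol regulatory element-binding proteins (SREBPs) are the transcription factors that switch on the genes of cholesterol and fatty acid synthesis. This account covers Srebf1 and Srebf2, which encode them, and 4 genes around them: Scap, Insig1, Insig2 and Stard4. They were taken by gene symbol from the platform annotation, and every probe set with 1 of these 6 symbols was kept. This gave 12 probe sets of the 45101 in the table: 1 for Srebf1, 2 for Srebf2, 2 for Scap, 1 for Insig1, 3 for Insig2 and 3 for Stard4. A probe set is a group of short probes that together read 1 transcript, and each is shown on its own, since probe sets of a gene can read different ends or splice forms. The sources used here do not give where in each gene the probes lie.

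The samples are liver RNA from male mice on 18 arrays of 1 type (Affymetrix Mouse430_2), in 6 groups of 3. Hmgn1+/+ animals are called wild type and Hmgn1-/- animals knockout; Hmgn1 encodes a protein that binds nucleosomes and loosens chromatin. Each genotype was measured without injection at 4 weeks, and at 12 weeks after either saline or 10 µg per g body weight of N-nitrosodiethylamine (DEN) had been injected at 4 weeks of age. DEN is a liver carcinogen that liver enzymes activate. Whether the 12 weeks count from birth or from the injection is not clear in the labels, so the age of the injected groups is uncertain. Both genotypes descend from the same heterozygous crosses but were then bred as separate homozygous lines, so a genotype difference can also come from whatever else differs between the lines. No label ties each array to an animal of its own, and p-values therefore measure the spread between these samples, which may be technical. Feeding state at collection is not given in the sources used here.

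SREBPs are made as precursors in the membrane of the endoplasmic reticulum, bound to the escort protein SCAP. When sterols are low, SCAP carries the precursor to the Golgi, where it is cut and its active part is freed; when sterols are high, INSIG1 or INSIG2 holds SCAP back. In liver SREBP-1c, a product of Srebf1, is raised by insulin and drives fatty acid synthesis, and SREBP-2 drives mainly cholesterol synthesis. Insig1 is itself a target of SREBPs, so its RNA falls when SREBPs are less active, while a liver transcript of Insig2 rises in fasting and is lowered by insulin. Stard4 encodes a small protein that moves cholesterol between membranes and is also a known SREBP-2 target.

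The deposited signals are linear, and log2 values are those of the signal plus 16. Differences are given in log2 with their standard error (SE), tested with limma over all 27022 probe sets whose mean passed a filter on low values, and called "rose" or "fell" where the Benjamini-Hochberg adjusted p was under 0.05. Of the 12 member probe sets 11 passed that filter. The other was Scap 1442885_at, with a mean log2 of 4.90 against a limit of 4.98 and signals between 1.15 and 36.3. The lowest member inside the limit was Srebf2 1426744_at, with a mean log2 of 6.50.

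Arrays of the saline groups differed from the other 12 in their range. The brightest probe set reached 16720 to 21752 on the 6 saline arrays and 46967 to 60173 elsewhere, and their BioB hybridization control, a bacterial transcript added to each sample, had a log2 of 5.38 to 5.87, against 8.29 to 9.13. The saline treatment and this difference between arrays cannot be told apart. Member calls that use saline arrays are therefore given with quantile-normalized values too, which force all arrays onto 1 distribution. Some other saline values are given for the deposited signals alone. The ratio of 3' to 5' Gapdh signal, which rises as RNA degrades, reached its maximum of 2.19 on replicate 2 of wild type at 4 weeks. It also differed between groups. At 4 weeks it was 1.13 to 2.19 in wild type and 1.35 to 1.7 in knockout. With DEN it was 1.02 to 1.13 in wild type and 0.907 to 0.937 in knockout. Comparisons of DEN with 4 weeks therefore also differ in this ratio. Hmgn1 signal did not pass the test between genotypes in any condition (3 tested probe sets, differences from -0.15 to 0.06), and since the deleted part and the probe positions are not given in the sources used here, this does not check the labels. Hepatocyte markers were abundant on all arrays, with a summed signal of 80492 or more for 7 genes. Of 4 bile duct markers Krt19 and Krt7, and of 4 lymphocyte markers Cd3e and Cd79a, were near the floor, with signals of at most 34.9. Adipose markers (Fabp4, Adipoq) summed to 5363 on knockout DEN replicate 1 and 3314 on knockout saline replicate 2, against at most 522 on any other array.

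**Figure D1:**
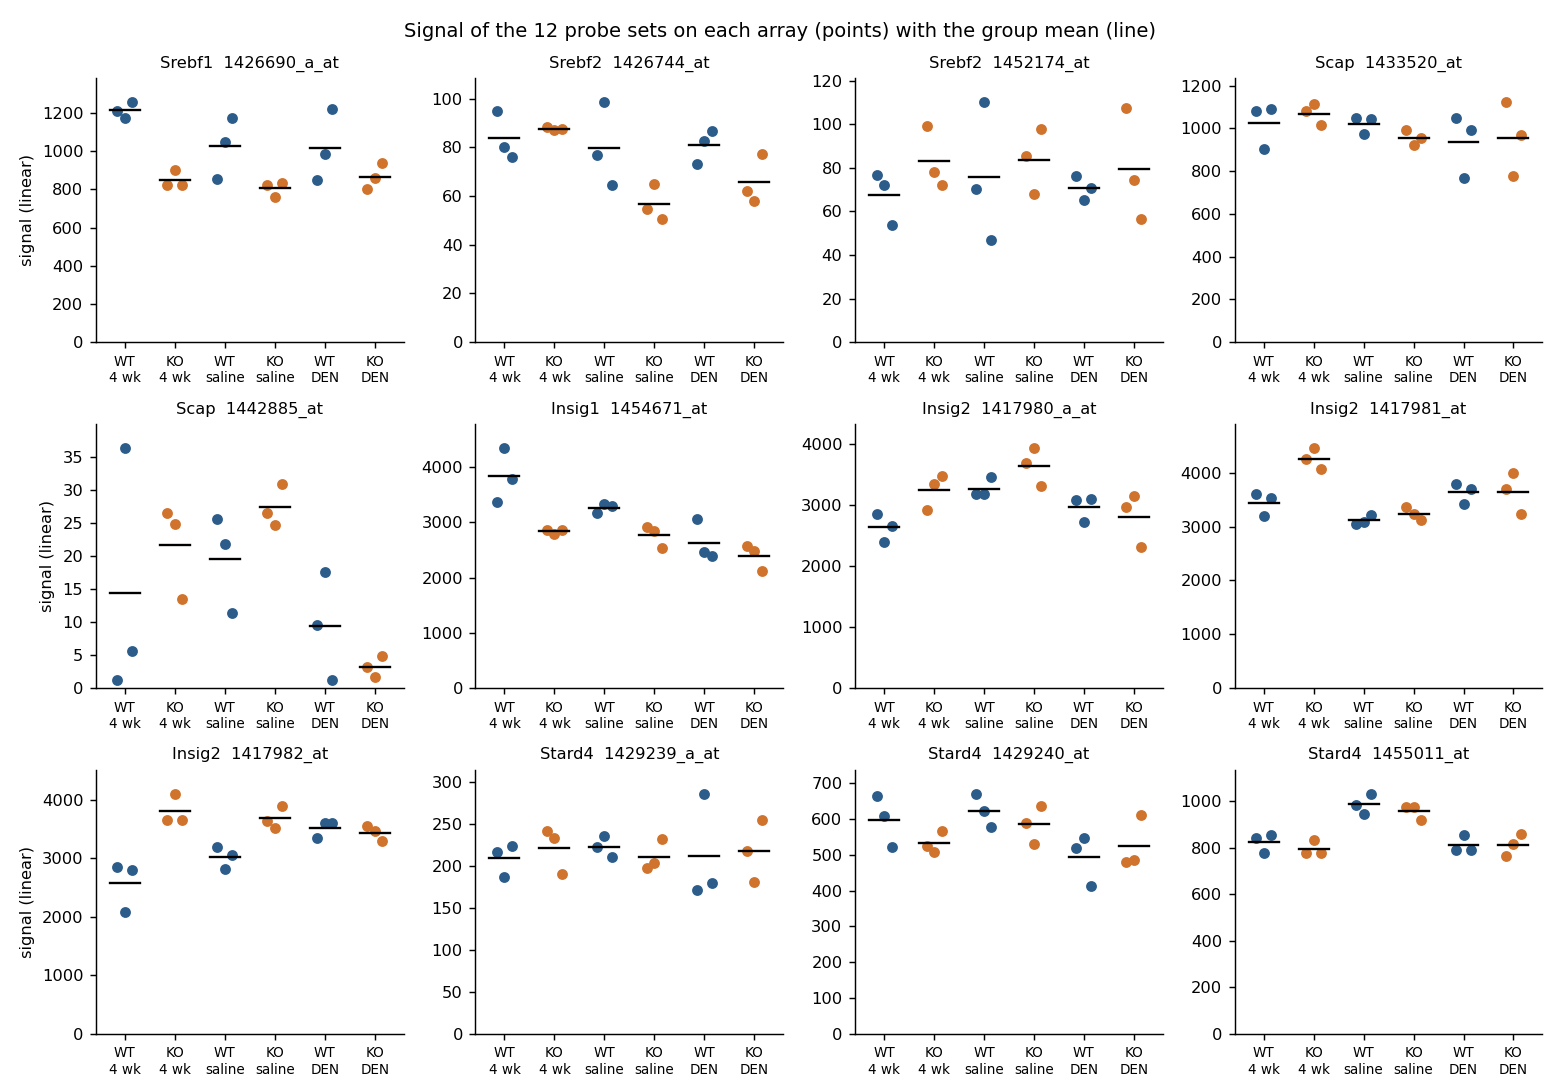
Deposited signal (linear, each vertical axis from 0) of the 12 member probe sets on the 18 arrays; blue points are wild-type and orange points knockout arrays, 3 a group in no order, and black lines are group means. The 3 wild-type arrays at 4 weeks lie above the 3 knockout arrays for Srebf1 and Insig1, and below them for all 3 Insig2 probe sets.

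At 4 weeks the knockout livers had less Srebf1 and Insig1 RNA and more Insig2 RNA than the wild-type livers. Srebf1 fell by 29.8%, Insig1 fell by 25.4%, and Insig2 rose by 48.6% on the probe set that changed most. Scap, Srebf2 and Stard4 did not pass the test. Thus 3 of the 11 tested member probe sets were called, 2 lower and 1 higher, where over all 27022 tested probe sets 2.26% were called (2.05% with quantile-normalized values). The groups did not overlap on 5 of the 11, where they did not overlap on 19.5% of all tested probe sets. With each gene counted once, by its tested probe set of highest mean, 3.08% of 12896 genes were called.

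Srebf1 (1426690_a_at; chromosome 11, 60199084 to 60224186, build GRCm38.p6) had signals of 1212, 1171 and 1255 on the wild-type arrays at 4 weeks and 822, 900 and 820 on the knockout arrays. The groups did not overlap, and the knockout values lay close together. The difference was -0.51 in log2 (SE 0.12, adjusted p = 0.0236), and -0.49 with quantile-normalized values (adjusted p = 0.0241). The probe set does not tell the SREBP-1a and SREBP-1c transcripts apart as far as its annotation goes. The call was lost when wild-type replicate 1 or 3, or knockout replicate 1 or 3, was left out (adjusted p between 0.0607 and 0.0932, differences between -0.51 and -0.48).

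Insig1 (1454671_at; chromosome 5, 28071412 to 28078662) had signals of 3376, 4342 and 3776 in wild type and 2854, 2795 and 2865 in knockout. All 3 knockout arrays lay below all 3 wild-type arrays, and the wild-type array with the highest value was replicate 2, which also had the highest Gapdh ratio. Insig1 fell by 0.42 (SE 0.10, adjusted p = 0.0309). The difference was -0.36 with quantile-normalized values, where the call was lost (adjusted p = 0.0515). Without wild-type replicate 2 it was -0.33 (adjusted p = 0.104), and the call was also lost without wild-type replicate 3 or any 1 of the 3 knockout arrays, at differences of -0.43 to -0.41.

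Insig2 (chromosome 1, 121304353 to 121332662) is read by 3 probe sets, and all 3 were higher in knockout with no overlap between the groups. On 1417982_at the signals were 2839, 2079 and 2789 in wild type and 3642, 4094 and 3650 in knockout. This probe set rose by 0.57 (SE 0.10, adjusted p = 0.00265), the 82nd smallest p of the 27022, and the call held in all 6 fits that left out 1 array, with differences of 0.43 to 0.65. On 1417981_at the signals were 3604, 3203 and 3537 in wild type and 4266, 4458 and 4065 in knockout, and on 1417980_a_at they were 2842, 2389 and 2653 against 2917, 3339 and 3460. These gave 0.31 (SE 0.08, adjusted p = 0.0508) and 0.30 (SE 0.11, adjusted p = 0.161), which did not pass. With quantile-normalized values 1417981_at passed (0.33, adjusted p = 0.0147), and 1417980_a_at did not (0.30, adjusted p = 0.12). The 3 probe sets share a gene and are not independent evidence.

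The remaining members did not pass at 4 weeks. The SCAP escort gene (1433520_at; chromosome 9, 110333288 to 110384949) had signals of 1081, 905 and 1092 in wild type and 1080, 1113 and 1014 in knockout, a difference of 0.06 with a 95% interval from -0.19 to 0.31. Srebf2 (chromosome 15, 82147269 to 82205379) was read by 2 probe sets. Its probe set 1426744_at had 95.1, 80.0 and 75.9 in wild type and 88.3, 87.3 and 87.4 in knockout, a difference of 0.06 (95% interval -0.26 to 0.38). Its other probe set, 1452174_at, gave 0.25 (95% interval -0.21 to 0.71), so a change of Srebf2 by the size seen for Srebf1 lies outside the first interval and, upward, inside the second. The 3 Stard4 probe sets differed by 0.07, -0.15 and -0.05, and the widest of their 95% intervals reached from -0.25 to 0.40.

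**Figure D2:**
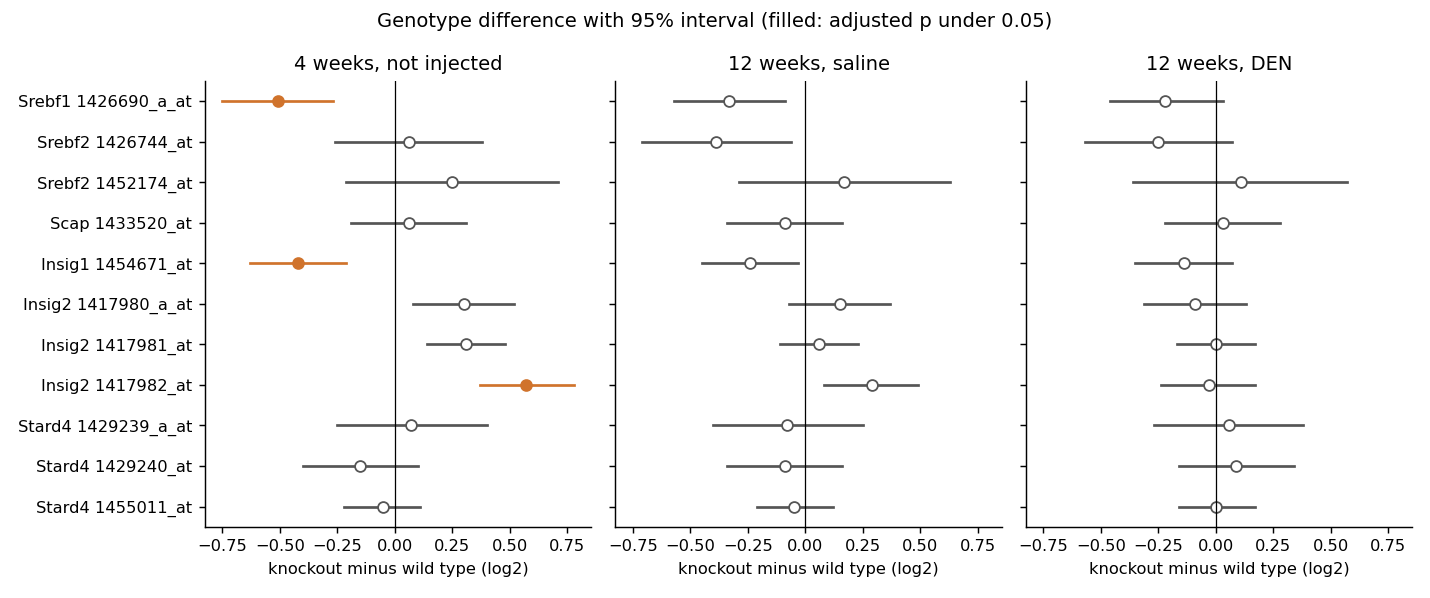
Knockout minus wild-type difference in log2 (horizontal axis) with its 95% interval for the 11 tested probe sets (rows) in each condition (panels); filled orange marks have an adjusted p under 0.05. Srebf1 and Insig1 lie to the left of 0 and Insig2 1417982_at to the right at 4 weeks, and no probe set is filled with saline or DEN.

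Promoter sequence is shown for the 2 INSIG genes, which moved in opposite directions at 4 weeks, and for Srebf2, which did not pass. Sequences are from RefSeq (GRCm38.p6), written 5' to 3' on the strand of the gene, and end just before the gene's annotated interval. Capitals mark matches, on either strand, to motifs of factors that act with or beside SREBPs: an E-box (CACGTG), an NF-Y box (CCAAT) and a GC box (GGGCGG), which Sp1 binds. Insig1 is chr5:28071162-28071411 on the plus strand, Srebf2 is chr15:82147019-82147268 on the plus strand, and Insig2 is chr1:121332663-121332839 on the minus strand.
Insig1: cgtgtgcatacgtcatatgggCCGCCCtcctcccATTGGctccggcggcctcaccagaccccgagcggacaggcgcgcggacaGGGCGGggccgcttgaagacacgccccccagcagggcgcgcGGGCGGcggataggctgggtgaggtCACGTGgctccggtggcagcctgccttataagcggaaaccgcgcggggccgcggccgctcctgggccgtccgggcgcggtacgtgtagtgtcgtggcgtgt
Srebf2: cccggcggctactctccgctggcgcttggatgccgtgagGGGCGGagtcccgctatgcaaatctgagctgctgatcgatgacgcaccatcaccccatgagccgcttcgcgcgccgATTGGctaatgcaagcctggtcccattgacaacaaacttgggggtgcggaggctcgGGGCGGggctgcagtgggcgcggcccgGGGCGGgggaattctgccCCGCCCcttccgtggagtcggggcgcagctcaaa
Insig2: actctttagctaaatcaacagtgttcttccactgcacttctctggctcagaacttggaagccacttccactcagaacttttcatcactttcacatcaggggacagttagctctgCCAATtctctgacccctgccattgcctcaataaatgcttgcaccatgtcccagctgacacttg

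RefSeq windows were given for 5 of the 6 members, 10 windows in all, and each was searched over the 250 bases before its start. The Insig1 window held 1 E-box, 1 NF-Y box and 3 GC boxes. The Srebf2 window held 1 NF-Y box and 4 GC boxes. The 3 Insig2 windows held 3 NF-Y boxes before the first start and 1 GC box before each of the other 2. The Insig2 stretch printed above has 177 bases and shows 1 of these NF-Y boxes. Those at -46 to -42 and -29 to -25 lie inside the gene's annotated interval and are not printed. The 3 Srebf1 windows held 2 NF-Y boxes and 4 GC boxes together, and of the 2 Scap windows 1 held an E-box and a GC box. No match of one motif overlapped a match of another. Among all 32851 windows of this length 6.02% held an E-box, 33.8% an NF-Y box and 32.7% a GC box, so NF-Y and GC boxes are common in promoters of any kind. A sterol regulatory element in the form TCACNCCAC was in 0 of the 10 windows and in 1.05% of all windows; this says only that these letters are not there. A match is a description of the sequence and not a bound site.

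**Figure D3:**
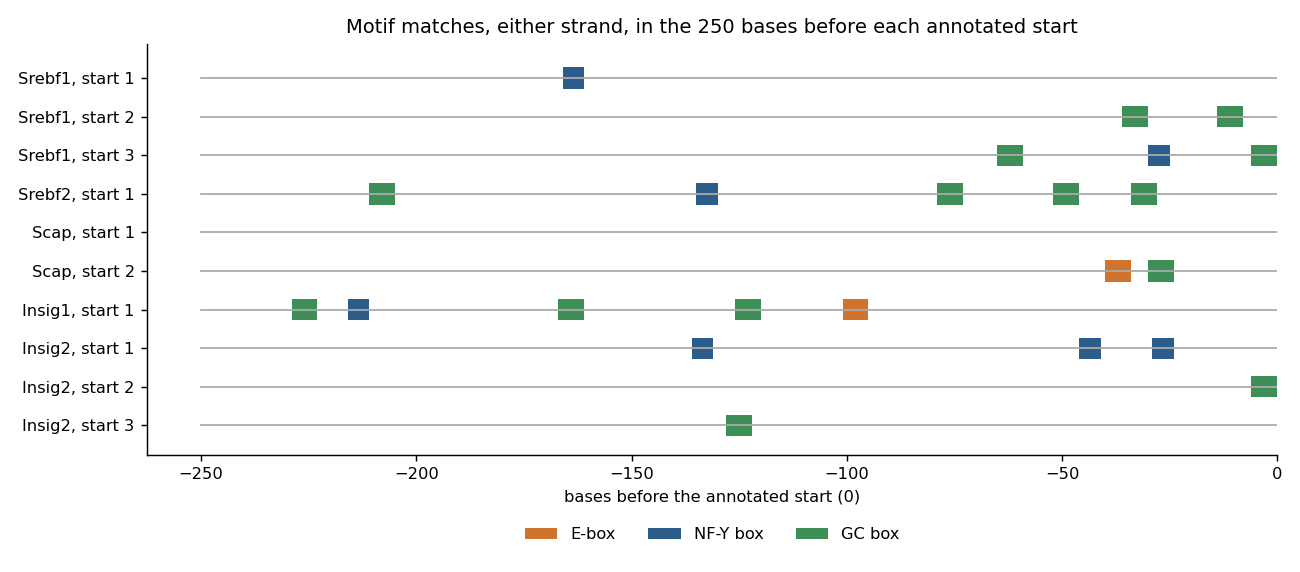
Motif matches on either strand in the 250 bases before each annotated start of 5 member genes (rows, starts numbered from the most upstream); the horizontal axis is the distance from the start in bases, and colours are the motifs. The Insig1 row holds an E-box at positions -101 to -96, and the first Insig2 row holds 3 NF-Y boxes.

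Most enzymes of cholesterol synthesis fell at 4 weeks. Of 17 tested, 14 fell and 0 rose (11 and 0 with quantile-normalized values), where 3.08% of all genes were called. The median difference was -0.91, against 0.02 over all genes. Lss (lanosterol synthase) was at -1.03 (SE 0.15, adjusted p = 0.00091), Sqle (squalene epoxidase) at -1.03 (SE 0.17, adjusted p = 0.00211), Fdft1 (squalene synthase) at -1.02 (SE 0.16, adjusted p = 0.00126) and Pmvk (phosphomevalonate kinase) at -1.02 (SE 0.16, adjusted p = 0.00177). In fatty acid synthesis 5 of 15 tested genes were called, each lower, the other 10 did not pass, and the median was -0.33. Fasn (fatty acid synthase) was at -1.41 (SE 0.17, adjusted p = 0.000121), Thrsp, a lipogenic regulator that insulin and thyroid hormone raise, at -1.24 (SE 0.20, adjusted p = 0.00157), Gpam, which starts triglyceride synthesis, at -0.79 (SE 0.13, adjusted p = 0.00186) and Acly (ATP citrate lyase) at -0.70 (SE 0.13, adjusted p = 0.00648). Both lists were taken with earlier results of these data known.

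Of 17 tested genes for the transport, cutting and degradation of SREBPs and INSIGs, which include proteases, COPII coat proteins and ubiquitin ligases, 0 were called by limma, with a median of 0.07; 3.08% of all genes were called. The smallest p belonged to Sar1a, a COPII coat GTPase, at 0.21 (SE 0.08, adjusted p = 0.206). Fbxw7, which marks mature SREBPs for degradation, was at 0.31 (SE 0.15, adjusted p = 0.355), and Mbtps1, the site-1 protease, at 0.15 (SE 0.08, adjusted p = 0.371). Of 17 cofactors and upstream factors, Sp1, a partner of SREBPs at many promoters, rose by 0.41 (SE 0.09, adjusted p = 0.0183) and 0 fell, with a median of 0.21. The coactivator Ppargc1b was at 0.76 (SE 0.21, adjusted p = 0.0626).

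Genes of sterol export and traffic were also set beside the members. Of 8 targets of LXR, the receptor for oxidized sterols that also drives Srebf1, 1 rose and 0 fell, with a median of 0.01. Over all genes 3.08% were called. The gene that rose was Abcg8, at 0.51 (SE 0.12, adjusted p = 0.0284), and its partner in the exporter that moves cholesterol into bile, Abcg5, was at 0.52 (SE 0.14, adjusted p = 0.0555). Of 12 genes of sterol traffic 1 fell, Lipa (lysosomal acid lipase), by 0.38 (SE 0.08, adjusted p = 0.0175), and the median was -0.01.

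Markers of other liver cells differed between the same arrays. The summed signal of 8 macrophage and Kupffer cell markers was 5336 to 5711 in wild type and 3502 to 3762 in knockout at 4 weeks. Of the 8, 2 were lower past the threshold, where 3.08% of all genes were called. The summed signal of 7 stellate cell and fibroblast markers was 3688 to 4518 against 2551 to 2725, with 2 of the 7 lower. The 7 hepatocyte markers held 0 called genes and a median of 0.06. Of 5 endothelial markers 0 were called. The summed pancreas markers were at 384 to 515 in wild type and 716 to 780 in knockout, with 1 of 2 tested genes higher. Most of that sum was 1 gene, Cela1, with signals of 352 to 819 over the 18 arrays. Prss2 reached at most 44.5, and the acinar enzymes Cpa1 and Ctrb1 were near the floor at no more than 10.5 and 39.1. In the saline and DEN groups 0 hepatocyte, macrophage or stellate markers were called between genotypes by limma, where 0.0111% and 0.0074% of all probe sets were. The macrophage sum with saline was 4887 to 5799 in wild type and 4078 to 4774 in knockout, without overlap, with a median difference of -0.24, and with DEN the ranges overlapped. With saline the endothelial sum, at 949 to 971 against 800 to 878, did not overlap either. Neither did the sums of pancreas (544 to 645 against 702 to 763) and lymphocyte markers (60 to 64 against 69 to 83). All these sums are of deposited signals. In whole liver, fewer cells of a type and less RNA per cell cannot be told apart, and the part of these cells in the member results was not tested.

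**Figure D4:**
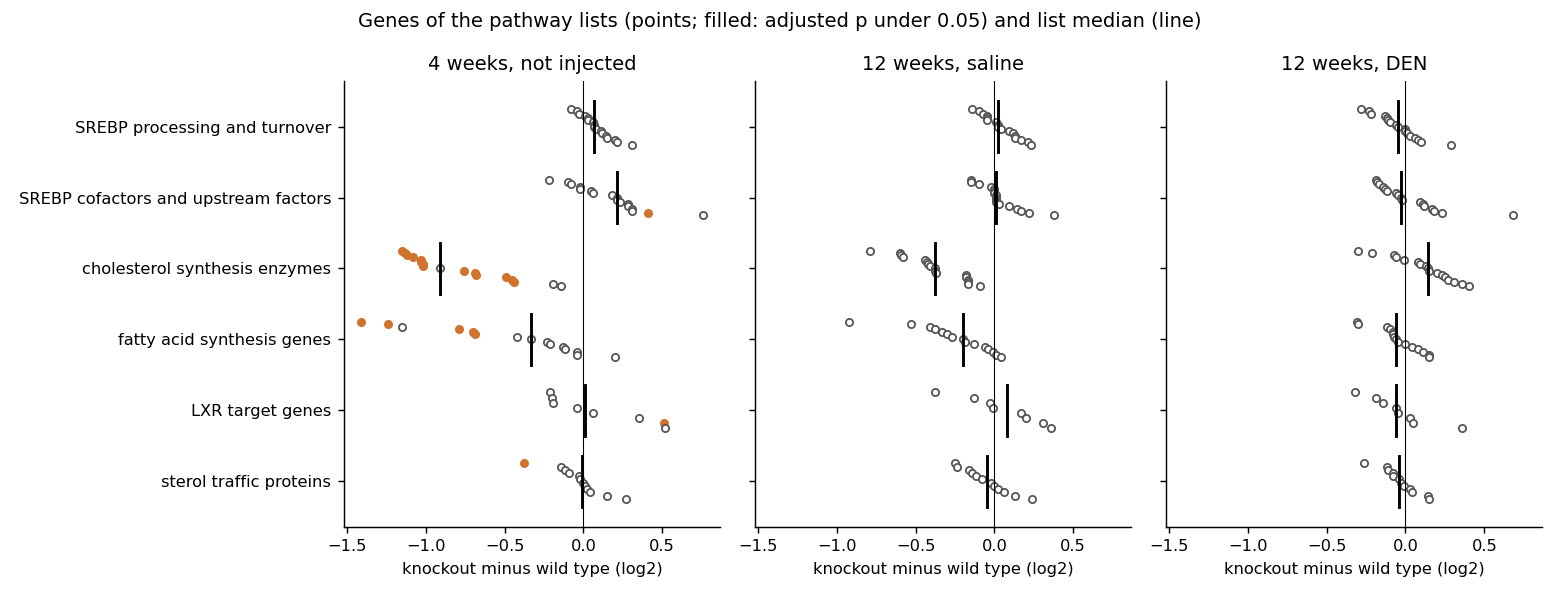
Knockout minus wild-type difference in log2 (horizontal axis) of each tested gene in the 6 pathway lists (rows) under each condition (panels); filled orange points have an adjusted p under 0.05 and black lines are list medians. The cholesterol enzymes have a median of -0.91 at 4 weeks, -0.38 with saline and 0.14 with DEN.

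In the saline groups 0 of 11 member probe sets passed. Over all probe sets 3, or 0.0111%, were called (0.0155% of genes), so almost nothing could be called here; 1426 had an unadjusted p under 0.05. The member with the largest difference was Srebf2 1426744_at, with signals of 76.7, 98.5 and 64.6 in wild type and 54.8, 64.9 and 50.7 in knockout, which overlapped by a small margin. It was at -0.39 (SE 0.15, adjusted p = 0.925), and at -0.47 with quantile-normalized values (adjusted p = 0.769). The other Srebf2 probe set, 1452174_at, was at 0.17 (quantile 0.1). The groups did not overlap on 3 of the 11, where they did not on 17.7% of all tested probe sets. Srebf1 had signals of 855, 1047 and 1174 in wild type and 823, 760 and 833 in knockout, which did not overlap, with a difference of -0.33 (SE 0.12, adjusted p = 0.871). Insig1 had 3162, 3332 and 3297 in wild type and 2915, 2838 and 2535 in knockout, again without overlap, at -0.24 (SE 0.10, adjusted p = 0.941). Insig2 1417982_at had 3185, 2808 and 3058 in wild type and 3641, 3516 and 3883 in knockout, without overlap, at 0.29 (SE 0.10, adjusted p = 0.837). With quantile-normalized values these were -0.30, -0.24 and 0.39 (adjusted p 0.847, 0.88 and 0.324). The other 2 Insig2 probe sets overlapped, at 0.15 and 0.06 (quantile 0.22 and 0.11). All 17 cholesterol enzymes had negative differences with saline, median -0.38 (quantile -0.42), and 0 were called in either scaling.

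The difference of the genotype effect between saline and 4 weeks was itself tested. For Srebf1 it was 0.18 (95% interval -0.17 to 0.52), for Insig1 0.18 (-0.12 to 0.48) and for Insig2 1417982_at -0.29 (-0.57 to 0.00), each with adjusted p = 0.999. With quantile-normalized values these were 0.19, 0.12 and -0.18, none past the threshold. Of the 27022 probe sets 1, or 0.0037%, passed, and 0 of the members did. The genotype differences in the saline groups were thus not shown to differ from those at 4 weeks.

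With DEN 0 of 11 member probe sets passed, and in 0 of them were the groups apart, where they were apart on 10.8% of all tested probe sets; 2 of all probe sets, or 0.0074%, were called (0.00775% of genes), and 2424 had an unadjusted p under 0.05. Srebf1 had 848, 986 and 1221 in wild type and 802, 859 and 936 in knockout, at -0.22 (SE 0.12, adjusted p = 0.617). Insig1 had 3053, 2455 and 2393 in wild type and 2573, 2472 and 2116 in knockout, at -0.14 (SE 0.10, adjusted p = 0.736). On these arrays the values of both genes overlapped, although the knockout means were lower. For Insig2 1417982_at the signals were 3342, 3604 and 3606 in wild type and 3543, 3466 and 3293 in knockout, at -0.03 (95% interval -0.24 to 0.17). The other Insig2 probe sets were at 0.00 and -0.09. The cholesterol enzymes had a median of 0.14 and the fatty acid genes -0.06, with 0 called in either list.

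The genotype effect on Insig2 1417982_at was smaller with DEN than at 4 weeks by the test of the difference itself: -0.61 (SE 0.14, 95% interval -0.89 to -0.32, adjusted p = 0.0418; quantile -0.63, adjusted p = 0.0321). It was the 1 member probe set called, where 0.762% of all probe sets (0.711% with quantile-normalized values) and 1.08% of genes were. Insig2 1417980_a_at was at -0.39 (adjusted p = 0.243) and 1417981_at at -0.31 (adjusted p = 0.222). Srebf1 was at 0.29 (95% interval -0.05 to 0.64, adjusted p = 0.446) and Insig1 at 0.29 (-0.01 to 0.59, adjusted p = 0.38). Of the cholesterol enzymes 7 and of the fatty acid genes 2 had a called rise of the genotype effect (4 and 1 with quantile-normalized values). On the deposited values Pmvk was at 1.29 (SE 0.23, adjusted p = 0.0127) and Fasn at 1.29 (SE 0.24, adjusted p = 0.0159). The Insig2 call was lost when any 1 of the 3 knockout arrays at 4 weeks, the 3 knockout DEN arrays, or wild-type DEN replicate 2 or 3 was left out, with adjusted p between 0.051 and 0.106 and differences between -0.63 and -0.55. Between DEN and saline 0 of the 27022 probe sets, 0%, differed in genotype effect by limma (2170 at an unadjusted p under 0.05), and for Insig2 1417982_at the value was -0.32 (adjusted p = 0.568; quantile -0.45, adjusted p = 0.465).

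From 4 weeks to DEN at 12 weeks in wild type, Insig1 fell by 31.2% and Insig2 1417982_at rose by 37.9%. In log2 these were -0.54 (SE 0.10, adjusted p = 0.00511) and 0.46 (SE 0.10, adjusted p = 0.0103). On both of these probe sets the groups did not overlap, as on 19.1% of all tested probe sets. They were 2 of 11 called, where 4.4% of all probe sets were (4.37% with quantile-normalized values). Srebf1 was at -0.26 (SE 0.12, adjusted p = 0.219), and its DEN replicate 3, at 1221, lay within the range of the 4-week arrays. The other 2 Insig2 probe sets were at 0.17 (adjusted p = 0.397) and 0.08 (adjusted p = 0.649), with groups that overlapped. The rise was thus called on 1 of 3. In the same comparison, where 4.71% of genes were called, 9 of 17 cholesterol enzymes and 7 of 15 fatty acid genes fell, with Fdft1 at -0.95 (SE 0.16, adjusted p = 0.00166) and Fasn at -1.16 (SE 0.17, adjusted p = 0.000745), while Abcg8 rose by 0.53 (SE 0.12, adjusted p = 0.0175) and Abcg5 by 0.52 (SE 0.14, adjusted p = 0.0393). This comparison uses the same wild-type 4-week arrays as the genotype comparison at that age, so they are not independent. Injection and age also change together in every comparison against 4 weeks, so a change there cannot be assigned to DEN.

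Wild-type replicate 2 at 4 weeks had the highest Insig1 (4342), the lowest Insig2 1417982_at (2079) and the highest Gapdh ratio of the 18 arrays. With the Gapdh ratio as a covariate Insig1 was at -0.40 (adjusted p = 0.0883) and Insig2 1417982_at at 0.28 (adjusted p = 0.167). Without that array the Insig2 call was lost (0.32, adjusted p = 0.0503), while that of Insig1 held in all 6 fits without 1 array (adjusted p at most 0.0348).

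In knockout the change from 4 weeks to DEN called 0 of 11 members by limma, where 8.24% of all probe sets were called and 6300 had an unadjusted p under 0.05. Insig1 was at -0.25 (SE 0.10, adjusted p = 0.131), with groups that did not overlap, as on 26.1% of all tested probe sets. All 3 Insig2 probe sets had negative differences there, at -0.22, -0.23 and -0.14, and 1417981_at passed with quantile-normalized values (-0.27, adjusted p = 0.0211, 8.22% of all probe sets called). Srebf1 was at 0.03 (95% interval -0.21 to 0.27). On Insig2 1417982_at every wild-type DEN array was above the 4-week arrays of its genotype, and every knockout DEN array was below those of its own. Groups lay apart, in either direction, on 19.1% of all tested probe sets in wild type and 26.1% in knockout.

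**Figure D5:**
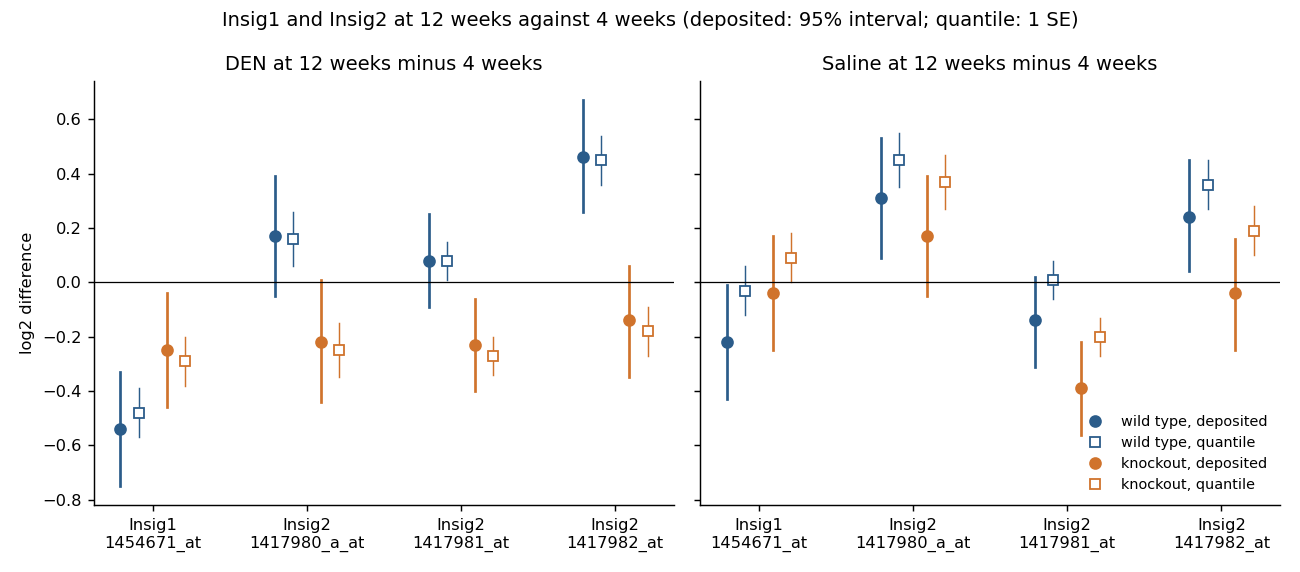
Log2 difference of the 12-week groups from the 4-week group of the same genotype (vertical axis) for Insig1 and the 3 Insig2 probe sets; filled circles are deposited values with 95% intervals, open squares quantile-normalized values with 1 SE. With DEN, Insig2 1417982_at is at 0.46 in wild type and -0.14 in knockout, and with saline the deposited and quantile values of each probe set lie apart.

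The calls between saline and 4 weeks differed between the scalings. In wild type 0 of 11 members passed on the deposited values, where 8.26% of all probe sets did. With quantile-normalized values, where 5.27% of all were called, 2 Insig2 probe sets rose, 1417980_a_at by 0.45 (adjusted p = 0.00874) and 1417982_at by 0.36 (adjusted p = 0.0234); on the deposited values they were at 0.31 (adjusted p = 0.0752) and 0.24 (adjusted p = 0.145). The third, 1417981_at, was at 0.01 with quantile-normalized and -0.14 with deposited values. Insig1 was at -0.22 on the deposited and -0.03 on the quantile values, neither past the threshold. Srebf1 was at -0.25 and -0.26 (adjusted p = 0.227 and 0.219).

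In knockout 3 of 11 members were called on the deposited values between saline and 4 weeks, where 9.94% of all probe sets were. Insig2 1417981_at fell by 0.39 (SE 0.08, adjusted p = 0.00295), from 4266, 4458 and 4065 to 3362, 3234 and 3131. The groups did not overlap, as on 32.9% of all tested probe sets. With quantile-normalized values, where 7.2% of all probe sets were called, the difference was -0.20 and no longer passed (adjusted p = 0.0898), and 1417980_a_at of the same gene rose by 0.37 (adjusted p = 0.0227). The third, 1417982_at, was at -0.04 on the deposited and 0.19 on the quantile values, and in neither scaling were 2 Insig2 probe sets called in opposite directions. Srebf2 1426744_at fell by 0.51 (SE 0.15, adjusted p = 0.0377; quantile -0.62, adjusted p = 0.0175), from 88.3, 87.3 and 87.4 to 54.8, 64.9 and 50.7, while 1452174_at was near 0, with 99.1, 77.9 and 72.0 against 85.6, 67.9 and 98.0. Stard4 1455011_at (chromosome 18, 33199138 to 33213862) rose by 0.26 (SE 0.08, adjusted p = 0.0407; quantile 0.27, adjusted p = 0.0308), from 778, 831 and 777 to 973, 974 and 918. The other Stard4 probe sets did not pass. Of these, 1429239_a_at was at -0.06 (adjusted p = 0.867, quantile -0.09) and 1429240_at at 0.13 (adjusted p = 0.578, quantile 0.12). Leaving out any 1 of the 6 arrays ended the calls of Srebf2 (adjusted p 0.0507 to 0.148) and of Stard4 1455011_at (adjusted p 0.0533 to 0.137). The call of Insig2 1417981_at held in all 6.

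DEN and saline at 12 weeks were also compared within each genotype. In wild type Stard4 1455011_at was lower with DEN, at 790, 854 and 789 against 983, 946 and 1030 with saline, a difference of -0.28 (SE 0.08, adjusted p = 0.0371), 1 of 11 members where 6.54% of all probe sets were called. With quantile-normalized values, where 3.64% of all were called, it was at -0.24 and did not pass (adjusted p = 0.0859). The call was also lost without wild-type DEN replicate 1 or 3 or any 1 of the saline arrays (adjusted p 0.0713 to 0.143). Stard4 1429240_at was at -0.34 (SE 0.12, adjusted p = 0.104), and at -0.28 with quantile-normalized values (adjusted p = 0.212). Its groups did not overlap, as was the case for 6 of the 11 members and 25.8% of all tested probe sets. The third probe set, 1429239_a_at, was at -0.10 (adjusted p = 0.797), and at -0.05 with quantile-normalized values (adjusted p = 0.92). In knockout Insig2 1417980_a_at was lower with DEN, at 2964, 3143 and 2305 against 3679, 3923 and 3304, a difference of -0.38 (SE 0.11, adjusted p = 0.018; quantile -0.62, adjusted p = 0.000337), again 1 of 11, where 15.1% of all probe sets were called. Without knockout DEN replicate 3, the lowest of these, it was -0.25 (adjusted p = 0.119), and the call was also lost without knockout saline replicate 1 or 2 (adjusted p = 0.0623 and 0.0854). The other Insig2 probe sets did not pass in knockout on the deposited values. There 1417982_at was at -0.10 (adjusted p = 0.553) and 1417981_at, with the opposite sign, at 0.16 (adjusted p = 0.202). With quantile-normalized values 4 members fell in knockout: Insig2 1417980_a_at, Insig2 1417982_at (-0.37, adjusted p = 0.0134), Stard4 1455011_at (-0.25, adjusted p = 0.035) and Insig1. On these values Insig2 1417981_at was at -0.07 (adjusted p = 0.572). Stard4 1429239_a_at was at 0.10 (adjusted p = 0.739) and 1429240_at at -0.13 (adjusted p = 0.544). Insig1 then fell in both genotypes, by 0.45 in wild type (adjusted p = 0.0118) and by 0.37 in knockout (adjusted p = 0.0148, where 10.9% of all probe sets were called). On the deposited values Insig1 was at -0.32 (adjusted p = 0.0685) and -0.21 (adjusted p = 0.176).

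Over the 6 groups, the mean Srebf1 signal was highest in wild type at 4 weeks, at 1213 ± 42.4 (SD, n = 3). It was 1025 ± 161 with saline and 1018 ± 189 with DEN in wild type, then 866 ± 67.0 with DEN, 847 ± 45.3 at 4 weeks and 806 ± 39.7 with saline in knockout. Neighbours in this order differed by less than the larger of their SDs, apart from the first step, where the saline arrays of wild type reached 1174 against a lowest 4-week value of 1171. For Insig1 the order was wild type at 4 weeks (3831 ± 485), wild type with saline (3264 ± 89.6), knockout at 4 weeks (2838 ± 37.7), knockout with saline (2763 ± 201), wild type with DEN (2634 ± 365) and knockout with DEN (2387 ± 240). The last 4 overlapped one another in their single values in each neighbouring pair. For Insig2 1417982_at wild type at 4 weeks was lowest (2569 ± 425) and knockout at 4 weeks highest (3795 ± 259), with wild type after saline next to the lowest (3017 ± 192) and the other 3 groups between 3434 and 3680. These orders are of deposited signals, and quantile-normalized values change some of them. In mean quantile-normalized log2, Insig2 1417982_at was highest in knockout with saline (12.05, against 11.86 at 4 weeks), and Insig1 was higher in knockout with saline (11.55) than in knockout at 4 weeks (11.46).

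Genes with the most similar pattern were found from quantile-normalized log2 values over the 18 arrays, by Pearson's r with each member's tested probe set of highest mean, among 12894 other genes. These are descriptions, since arrays of a group share their treatment, and no test was made. Srebf1 was closest to Pklr, the liver pyruvate kinase (r = 0.86), followed by Macrod1 (0.84) and Crat, a carnitine acetyltransferase (0.82). Insig1 was closest to Epm2aip1 (0.90), Entpd5 (0.89) and C730027H18Rik (0.89). Insig2 1417981_at was closest to Hes1, a Notch-responsive repressor (0.87), Slc25a22 (0.86) and Angptl8, a secreted regulator of lipoprotein lipase (0.85). Scap was closest to Klf15, a transcription factor of fasting metabolism (0.86), Cebpb (0.81) and Rhbdd2 (0.81). For Stard4 1455011_at the values were 0.94 for Afm, 0.94 for Prex2 and 0.93 for Fgd4, and for Srebf2 1452174_at they were lower, with Ica1 at 0.72.

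Among the members themselves, Srebf1 and Insig2 1417982_at ran opposite to each other over the 18 arrays (r = -0.69), while Srebf1 and Insig1 had r = 0.34. The 3 Insig2 probe sets correlated with r of 0.36 to 0.67, and the Stard4 probe sets with r of 0.09 to 0.44. The 2 Srebf2 probe sets had r = 0.00, so their values, which are low, do not agree on any pattern across the arrays.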

How the data were processed

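The deposited table holds 1 intensity per probe set and array, which the authors made with MAS5 per the submitters' processing notes, and on all 18 arrays the mean without the lowest and highest 2% of values was 150, so the deposited intensities had been scaled. MAS5 sets each array on its own, so a difference in array range stays in the values. Of 45101 probe sets 64 controls were left out. Genes were named from the platform annotation, where 34945 probe sets have 1 gene symbol, 932 several and 9160 none. The signal plus 16 was taken to log2, and the 27022 probe sets with a mean above the 40th percentile were fitted with limma 3.58.1 (R 4.3.3), with 6 group means, 12 residual degrees of freedom and variances moderated with an intensity trend. Each p is limma's two-sided moderated test with Benjamini-Hochberg adjustment over these probe sets, and intervals are 95%. The limma fit covered 12 contrasts. Pathway genes were represented by the tested probe set of highest mean, and up to 4 genes a list, those of smallest p in the genotype comparison at 4 weeks, were named. Alternatives were another scaling (quantile, cyclic loess, medians centred), 1 or 64 added in place of 16, other filters, no trend, array weights, the replicate number as a block, the Gapdh ratio as a covariate, fewer groups in the fit, and each of the 18 arrays left out. The fit was tested on simulated data. The number of arrays limits the precision. The member genes and the pathway and marker lists were chosen with earlier results of these data known. Promoter windows came from RefSeq (GRCm38.p6), and figures were drawn with matplotlib 3.10.9.

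Same-numbered arrays of the groups compared deviated from their group means with correlations of -0.10 to 0.12, not above 0.1 in every pair of any comparison, so the replicate numbers were not taken to pair the samples.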

Additional observations from a re-analysis of the deposited data

Results flagged for a closer look

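The response of Insig2 1417982_at to DEN at 12 weeks against 4 weeks ran in opposite directions in the 2 genotypes. It was 0.46 in log2 in wild type, where all 3 DEN arrays lay above all 3 arrays at 4 weeks, and -0.14 in knockout, where all 3 lay below. The difference between these responses, which is also the difference between the genotype effects, was -0.61 (limma, adjusted p = 0.0418). The knockout value alone did not pass the test (adjusted p = 0.409). The difference was called in 4 of 12 fits with 1 array left out and in 6 of 13 other settings. The wild-type call was lost without wild-type replicate 2 at 4 weeks (0.32, adjusted p = 0.0503) and with the Gapdh ratio as a covariate (0.28, adjusted p = 0.167). Both other Insig2 probe sets had a difference of the same sign that did not pass.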

How the results depend on the processing

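Of the member values under the alternatives, 2373 kept their direction and side of the threshold, 72 lost a call, 33 gained one, 151 were uncalled values that changed sign or moved, and 0 called values reversed. The rise of Insig2 1417982_at in knockout at 4 weeks was called in all 13 other settings, Srebf1 in 11 and Insig1 in 9. Centring array medians moved the median of all probe sets in a contrast by -0.13 to 0.19. Counts of member probe sets called, out of 11, were as follows, and the cause of each change was not tested. The genotype comparison at 4 weeks had 3, and 1 without an intensity trend. DEN against 4 weeks in wild type had 2, with 1 after centring medians or without the trend, and 0 with the compared groups alone or the Gapdh ratio as a covariate; in knockout it had 0, and 1 with quantile or loess scaling. Saline against 4 weeks in wild type had 0, with 2 under quantile or loess scaling or array weights, and 1 with 1 added or a filter at the 60th percentile. DEN against saline in wild type had 1, with 3 after centring medians, 2 with array weights, and 0 without the trend or with the compared groups alone. In knockout it had 1, with 4 under quantile or loess scaling, 2 with 1 added, no filter, the 60th percentile filter or array weights, and 0 after centring medians or without the trend. The difference of genotype effects between DEN and 4 weeks had 1, and 0 after centring medians, without filter or trend, with array weights, with the compared groups alone or with saline arrays left out.

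With 1 array left out, the counts were 1 to 2 for genotype at 4 weeks, 1 to 2 for DEN against 4 weeks in wild type, 1 to 1 for saline against 4 weeks in knockout, and 0 to 1 for DEN against saline in each genotype and for the difference between DEN and 4 weeks. With the replicate block the count was 1 in place of 3 for saline against 4 weeks in knockout, 0 in place of 1 for DEN against saline in wild type and 0 in place of 1 for the difference between DEN and 4 weeks; the other counts stayed within 1.5 times.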
